A study of Homo sapiens with 10 samples.

Results

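Epithelial and mammary lineage transcription factors were followed in human mammary epithelial cells: ELF3, EHF and ELF5 of the epithelial ETS group, the Krüppel-like factors KLF4 and KLF5, the zinc finger factor ZNF750, the grainyhead-like factors GRHL1 and GRHL3, and GATA3. The 9 genes were chosen by symbol from a list of names, and all 9 were found among the 26256 genes of one count table and the 55736 genes of the other. RNA-sequencing had been performed on MCF10A, a nontransformed and immortalized line from the mammary gland, in 10 libraries. MCF10A (parental, untreated, n = 2) was compared with G12V (MCF10A given oncogenic HRas, genotype H-RAS Gv12, untreated, n = 2), to ask which transcripts accompany transformation. In a separate experiment, parental MCF10A given 10 µM Nutlin-3a, which blocks MDM2 and so activates p53, for 4 h (n = 3) was compared with parental MCF10A given DMSO for 4 h (n = 3).

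G12V cells had been made by viral transduction with an HRas expression vector beside a GFP vector and by selection in hygromycin. No clone is named, and the study describes a growth arrest that came before the cells grew again. The MCF10A libraries came from parental cells, so an effect of HRas cannot be told apart from one of transduction, selection and the weeks of outgrowth. All 4 groups grew in horse serum with EGF, insulin, hydrocortisone and cholera toxin. Fewer cells of a type and less RNA per cell cannot be told apart in bulk RNA.

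Between 15453226 and 23683975 reads were counted per library. HRAS rose from 69.3 to 573 CPM (counts scaled by TMM to a common library size) in G12V, and Nutlin-3a raised the p53 targets MDM2 and CDKN1A by 2.54 and 2.16 on the log2 scale. As a check of the labelled cell type, 7 epithelial markers (EPCAM, CDH1 and keratins) were summed. The sums were 6736 to 8202 CPM in MCF10A and 1363 to 1662 CPM in G12V, with KRT14 at no more than 3 reads in G12V. KRT5 was the highest of the 7 in both groups. CDH1, EPCAM, KRT5, KRT14 and KRT17 fell by the call defined below. KRT8 (195 CPM in MCF10A and 222 CPM in G12V) and KRT18 (334 and 204 CPM) did not pass it. The 7 markers of other cells summed to 806 to 1018 CPM in MCF10A and 1259 to 1673 CPM in G12V. Nearly all of that was VIM, which mammary lines in culture also express, and without it the sums were 31.7 to 46.5 CPM and 29.0 to 47.7 CPM. PTPRC, which defines leukocytes, had no more than 3 reads in any library, and VWF had no more than 3 in G12V. The other leukocyte marker, CD14, was present at a mean of 27.5 CPM in MCF10A and 30.7 CPM in G12V. The other endothelial marker, PECAM1, was at 2.32 CPM in MCF10A and 2.96 CPM in G12V. The part of a change of cell state or cell makeup in the results that follow was not tested.

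These factors take part in the control of epithelial genes. Grainyhead-like factors bind the control regions of junction and barrier genes such as CDH1, KLF4, ZNF750 and GRHL3 take part in terminal differentiation of stratified epithelia, and KLF5 is a factor of growing basal cells. In the mammary gland, GATA3 maintains luminal cells, ELF5 directs the alveolar cells that make milk, and EHF and ELF3 are ETS factors restricted to epithelia.

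Promoter sequences are shown for the members with the widest and the narrowest changes between MCF10A and G12V, so that their start regions can be set side by side. The RefSeq windows (GRCh38.p14, 250 bases before the annotated start, 5′ to 3′ on the gene's strand) gave 16 windows for 8 of the 9 members. ZNF750 was not matched. Capitals mark the E-box CACCTG, searched on both strands, a motif bound by repressors of epithelial genes of the SNAI and ZEB families. The ELF3 window lies at chr1:202010337-202010586 (+), those of GRHL3 at chr1:24319107-24319356 (+) and chr1:24322790-24323039 (+), that of KLF4 at chr9:107489770-107490019 (-) and that of GRHL1 at chr2:9951443-9951692 (+).
ELF3: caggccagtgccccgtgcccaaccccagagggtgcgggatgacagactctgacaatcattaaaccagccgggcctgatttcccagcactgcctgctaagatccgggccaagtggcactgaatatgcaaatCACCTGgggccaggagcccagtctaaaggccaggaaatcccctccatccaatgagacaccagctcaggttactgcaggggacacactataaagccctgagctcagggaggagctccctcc
GRHL3, upstream start: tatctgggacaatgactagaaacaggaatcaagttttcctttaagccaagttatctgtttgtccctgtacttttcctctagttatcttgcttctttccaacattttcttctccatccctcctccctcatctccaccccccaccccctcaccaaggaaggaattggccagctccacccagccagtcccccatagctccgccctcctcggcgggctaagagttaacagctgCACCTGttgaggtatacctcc
GRHL3, downstream start: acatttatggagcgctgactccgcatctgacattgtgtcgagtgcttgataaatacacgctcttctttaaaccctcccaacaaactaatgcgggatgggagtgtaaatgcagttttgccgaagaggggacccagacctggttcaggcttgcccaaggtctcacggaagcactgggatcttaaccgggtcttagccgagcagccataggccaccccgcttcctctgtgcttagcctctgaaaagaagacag
KLF4: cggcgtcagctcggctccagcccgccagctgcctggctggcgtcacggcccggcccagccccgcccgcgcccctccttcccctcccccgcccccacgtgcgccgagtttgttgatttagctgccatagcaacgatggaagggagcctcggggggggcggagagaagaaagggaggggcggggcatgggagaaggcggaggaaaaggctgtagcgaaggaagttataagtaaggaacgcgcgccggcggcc
GRHL1: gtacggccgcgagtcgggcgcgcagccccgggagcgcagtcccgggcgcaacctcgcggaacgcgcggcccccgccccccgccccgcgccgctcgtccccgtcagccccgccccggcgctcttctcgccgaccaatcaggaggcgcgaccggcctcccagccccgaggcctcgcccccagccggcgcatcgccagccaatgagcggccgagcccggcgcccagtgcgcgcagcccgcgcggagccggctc

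The E-box was found in 2 of the 16 windows, 120 bases before the start of ELF3 and 21 bases before the upstream start of GRHL3, and 17.5% of 35116 RefSeq windows of this length held it. The CACCC box bound by Krüppel-like factors was present in 13 of the 16 windows, against 54.7% of all windows, and the 16 are not independent, since GATA3 alone has 6. The GATA motif AGATAA was present in 2 windows (9.17% of all) and the ETS core GGAAGT in 2 (19.5% of all). GC content was 58.4% for ELF3 and 50.8% and 52.0% for the GRHL3 windows. It was 69.2% for KLF4 and 81.6% for GRHL1, and the GRHL1 window is richer in GC than 98.0% of all windows. A match is no evidence that a factor was bound.

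Of the 9 factors, 8 had enough reads to be tested between G12V and MCF10A, 7 fell in G12V and none rose. ELF3, EHF, KLF4, KLF5, ZNF750, GRHL3 and GATA3 fell, while GRHL1 did not pass and ELF5 was not tested. A gene was called at an adjusted p under 0.05 (edgeR quasi-likelihood test, Benjamini-Hochberg adjustment over 14376 genes) with a log2 fold change beyond 0.5. Of all genes tested, 5.95% were called lower and 5.01% higher. In all 8 tested factors both G12V libraries lay below both MCF10A libraries, which held for 27.4% of all genes. The median log2 fold change of the 8 was -1.70, beside -0.0011 for all genes.

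The calls rested on few libraries. Without MCF10A replicate 1, edgeR called none of 14883 genes, and so no factor, although 2830 genes and 7 of the 8 factors had an unadjusted p under 0.05 and DESeq2 called 1488 genes and 6 factors. Without MCF10A replicate 2, edgeR lost the calls of EHF, KLF4 and GATA3 and kept those of ELF3, KLF5, ZNF750 and GRHL3. No edgeR call of a factor was lost without G12V replicate 1 or without G12V replicate 2. DESeq2 called fewer factors without MCF10A replicate 2 or without G12V replicate 1 than with all libraries. All 8 factors stayed below 0 in each of these fits.

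**Figure D1:**
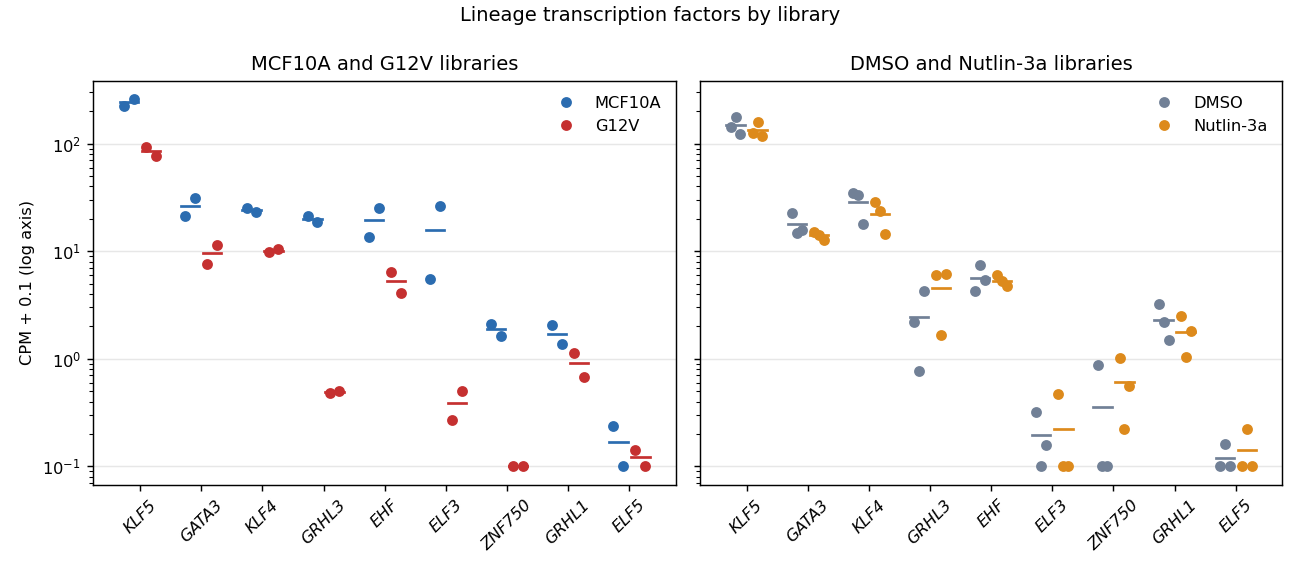
CPM + 0.1 on a log axis for the 9 factors in each library (points) with group means (lines), MCF10A and G12V on the left and DMSO and Nutlin-3a on the right. The G12V points lie below the MCF10A points for 8 factors, with GRHL3 at 0.385 and 0.401 CPM against 21.0 and 18.4 CPM, whereas the DMSO and Nutlin-3a points overlap for every factor.

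Of the grainyhead-like factors, GRHL3 fell and GRHL1 did not pass. GRHL3, which drives epidermal barrier formation and epithelial closure (hg19 chromosome 1, 24645812 to 24690970, plus strand), had 461 and 418 reads in the MCF10A libraries (21.0 and 18.4 CPM) and 9 reads in each G12V library (0.385 and 0.401 CPM). The G12V libraries were thus almost equal and far below both parental libraries. The log2 fold change was -5.63 ± 0.34 (SE, n = 2 and 2, edgeR adjusted p = 0.00096), and it stayed between -5.72 and -5.51 with any library left out, with an adjusted p of 0.060 without MCF10A replicate 1. STPG1, on the opposite strand, overlaps the end of GRHL3 and had 283 to 425 reads in these libraries.

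GRHL1, a relative that acts on desmosomal genes, was scarce: 43 and 29 reads in MCF10A (1.95 and 1.28 CPM) and 24 and 13 reads in G12V (1.03 and 0.580 CPM). The groups did not overlap, but the log2 fold change of -1.0 ± 0.48 did not pass (edgeR adjusted p = 0.26). GRHL2, the third grainyhead-like gene, was listed at 0 reads in all 10 libraries, and whether the annotation or the counting set this 0 was not tested.

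Per length, using RPKM on GENCODE exon lengths and with GRHL2 taken at its listed 0, GRHL3 made up 95.2% and 96.4% of the summed GRHL1 and GRHL3 in MCF10A and 41.1% and 56.3% in G12V. The sum itself was 5.16 and 4.48 RPKM in MCF10A and 0.219 and 0.167 RPKM in G12V. GRHL1 held the other 58.9% and 43.7% of the summed GRHL1 and GRHL3 in G12V, at a level below its own in MCF10A.

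Of the epithelial ETS factors, ELF3 and EHF fell and ELF5 was too low to test. ELF3 (hg19 chromosome 1, 201979690 to 201986315, plus strand), an ETS factor of differentiating epithelia, had 119 and 595 reads in MCF10A (5.41 and 26.2 CPM) and 4 and 9 reads in G12V (0.171 and 0.401 CPM). The parental libraries differed by 4.85 times, the widest spread of any tested factor in that group, yet the lower of them was still well above G12V. ELF3 thus had a log2 fold change of -5.77 ± 0.96 (edgeR adjusted p = 0.017). It was -4.22 (adjusted p = 0.0016) without MCF10A replicate 2, -6.48 (adjusted p = 0.065) without MCF10A replicate 1, -5.28 without G12V replicate 1 and -6.49 without G12V replicate 2.

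EHF (hg19 chromosome 11, 34642588 to 34684834, plus strand), another epithelial ETS factor, had 299 and 565 reads in MCF10A (13.6 and 24.9 CPM) and 149 and 89 reads in G12V (6.37 and 3.97 CPM). Every G12V value was below the lower parental value. EHF thus changed by -1.89 ± 0.41 on the log2 scale (edgeR adjusted p = 0.038), and the call was lost without MCF10A replicate 2 (-1.40, adjusted p = 0.11) or replicate 1 (-2.24, adjusted p = 0.13).

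ELF5, which lies 107.2 kb from EHF with 0 listed genes between them, was barely detected. It had 3 and 0 reads in MCF10A and 1 and 0 in G12V, at or under the floor of 3 reads in each library, and no fold is given. A difference in ELF5 was not detectable at this depth. Per length its mean was 0.0139 RPKM in MCF10A, beside 2.91 RPKM for its neighbour EHF.

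EHF and ELF3 formed a small part of the ELF family per length, 7.58% and 16.5% of its sum in MCF10A. ELF1, ELF2 and ELF4, which are widely expressed across tissues, made up the rest. ELF1 fell by 0.73 on the log2 scale (edgeR adjusted p = 0.043), a call that was lost with any 1 library left out (adjusted p = 0.12 to 0.21). ELF2 and ELF4 did not pass, and SPDEF was not tested.

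Both Krüppel-like factors fell, from unlike levels. KLF5 (hg19 chromosome 13, 73629114 to 73651680, plus strand), which maintains proliferating basal epithelial cells, had 4961 and 5865 reads in MCF10A (225 and 258 CPM) and 2159 and 1734 reads in G12V (92.3 and 77.3 CPM). It was the highest of the 9 factors per length in every group, at 65.8 ± 6.31 RPKM (SD, n = 2) in MCF10A. The log2 fold change was -1.51 ± 0.20 (edgeR adjusted p = 0.0084), with -1.65 to -1.39 on leaving out each library and an adjusted p of 0.11 without MCF10A replicate 1.

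KLF4 (hg19 chromosome 9, 110247133 to 110252047, minus strand), a factor of terminal epithelial differentiation, had 556 and 519 reads in MCF10A (25.3 and 22.9 CPM) and 226 and 231 reads in G12V (9.66 and 10.3 CPM). The replicates of each group were close and the groups lay apart. KLF4 changed by -1.27 ± 0.23 on the log2 scale (edgeR adjusted p = 0.022), and the adjusted p was 0.17 without MCF10A replicate 1 and 0.051 without replicate 2.

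KLF5 was 8.88 and 11.3 times as high as KLF4 per length in the MCF10A libraries and 9.51 and 7.47 times in the G12V libraries, so the ratio overlapped between the groups. KLF5 held 29.1% and 27.0% of the summed KLF family in MCF10A and 19.0% and 14.3% in G12V, and the sum itself was 211 to 260 RPKM against 132 to 147 RPKM. Of 15 other KLF genes, 13 were tested, 2 fell and none rose. With the replicate number added to the fit as a block, 5 of the 13 fell and 2 rose. That fit called 2087 genes lower and 2071 higher among all 14376. KLF6, a broadly expressed early-response factor, fell by 1.53 on the log2 scale (edgeR adjusted p = 0.025). KLF15 fell by 4.22 (adjusted p = 0.047), from 8.65 ± 8.63 CPM (SD, n = 2), and by 2.45 without MCF10A replicate 2 (adjusted p = 0.063).

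ZNF750 (hg19 chromosome 17, 80787310 to 80797931, minus strand), which acts with KLF4 in epidermal differentiation, had 44 and 35 reads in MCF10A (2.0 and 1.54 CPM) and 0 reads in both G12V libraries. Against a floor of 3 reads per library it was at least 13.5-fold lower in G12V (edgeR adjusted p = 0.0084, and 0.13 without MCF10A replicate 1). ZNF750 lies inside TBCD, on the opposite strand, which had 1897 to 3405 reads in these libraries. The strand setting of the counting is not given in the sources used here, so reads of ZNF750 and TBCD cannot be told apart where their exons overlap, which is 7.03% of the ZNF750 exon bases in GENCODE. For GRHL3 and STPG1 the overlap holds 0 exon bases of GRHL3 there.

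GATA3 (hg19 chromosome 10, 8096667 to 8117164, plus strand), the luminal lineage factor, had 462 and 704 reads in MCF10A (21.0 and 31.0 CPM) and 175 and 256 reads in G12V (7.48 and 11.4 CPM). Both G12V libraries lay well below the lower parental one. The log2 fold change was -1.46 ± 0.33 (edgeR adjusted p = 0.043). The call was lost without MCF10A replicate 1 (-1.70, adjusted p = 0.15) or replicate 2 (-1.15, adjusted p = 0.14) and when no filter on low counts was used (adjusted p = 0.0502).

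GATA6, a relative of endodermal and cardiac lineages, moved the other way. It had a log2 fold change of 1.42 ± 0.29 (edgeR adjusted p = 0.030), from 5.39 to 14.4 CPM. The call was lost without MCF10A replicate 1 (adjusted p = 0.19), MCF10A replicate 2 (adjusted p = 0.094) or G12V replicate 2 (adjusted p = 0.074), and the log2 fold change stayed between 1.21 and 1.60. Per length, GATA6 was 0.226 and 0.158 times as high as GATA3 in the MCF10A libraries and 1.49 and 1.29 times in the G12V libraries. GATA3 accordingly held 77.8% and 85.2% of the summed GATA family in MCF10A and 38.5% and 40.8% in G12V. Of the 6 relatives of GATA3, 3 were tested and GATA6 alone was called.

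**Figure D2:**
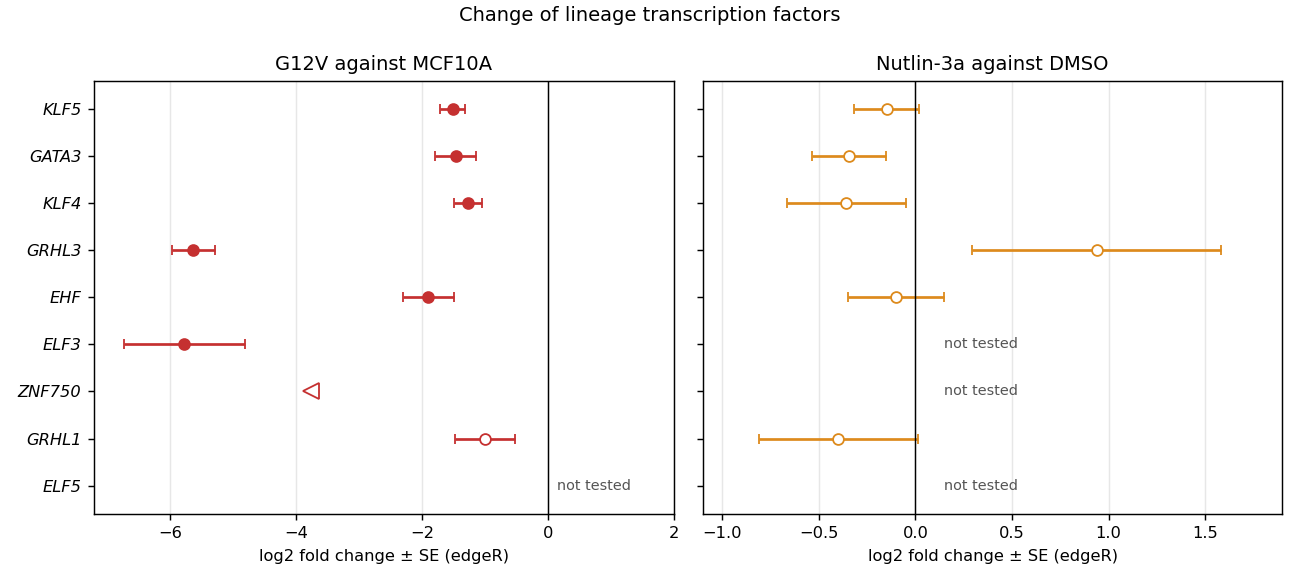
Log2 fold change ± SE from edgeR for each factor, G12V against MCF10A on the left and Nutlin-3a against DMSO on the right, on different x axes. Filled points passed the call, open points did not, and the open triangle is the bound for ZNF750 (at least 13.5-fold lower, also called). In G12V the values run from -5.77 for ELF3 to -1.0 for GRHL1, and no factor passed under Nutlin-3a.

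**Figure D3:**
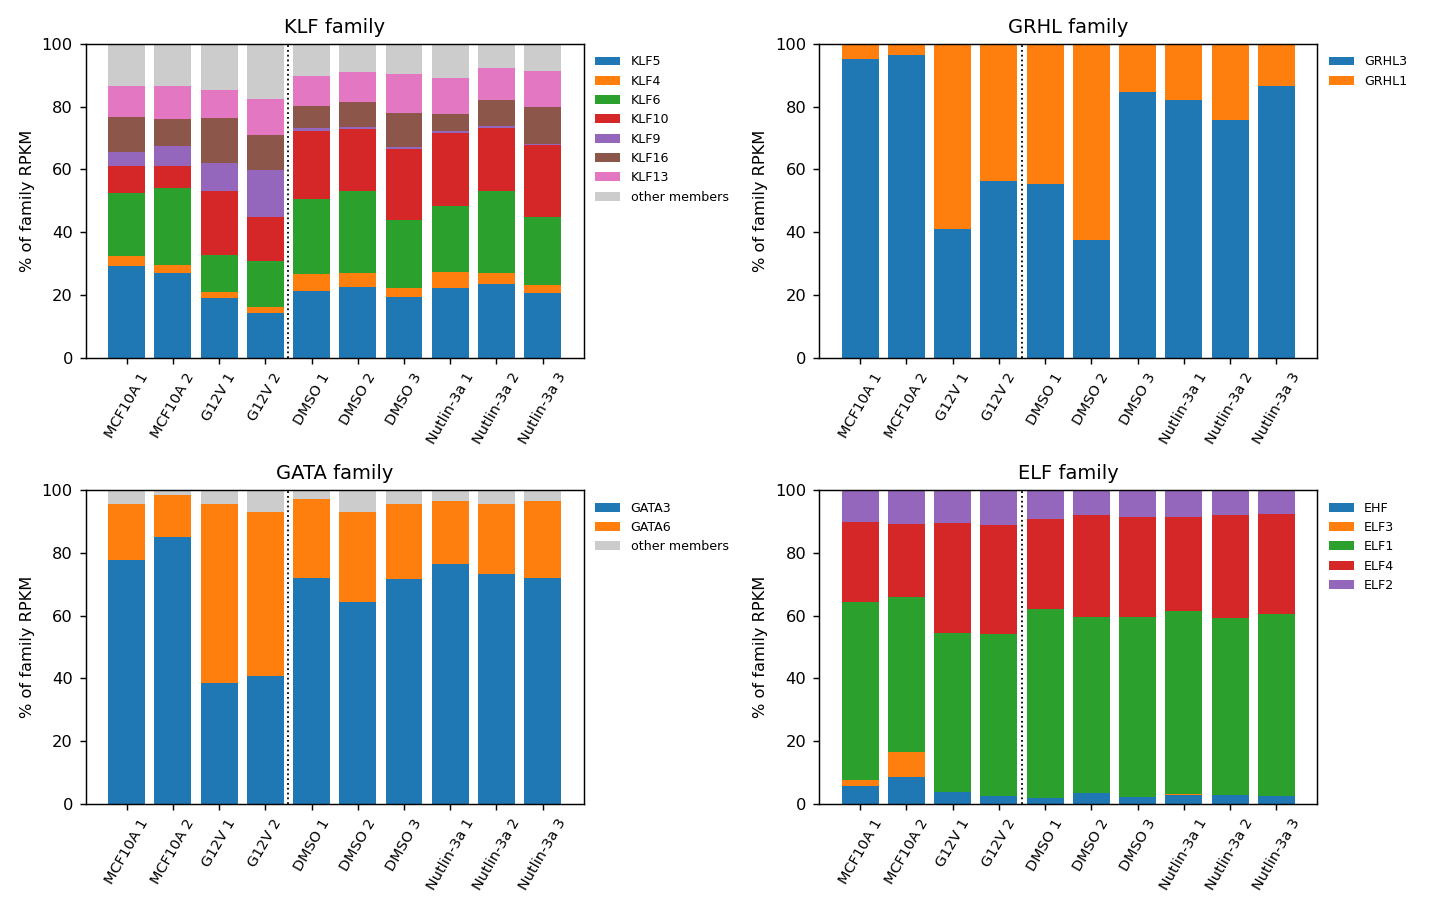
Share of each family's summed RPKM (%) in each of the 10 libraries, for the KLF, GRHL, GATA and ELF families, with the dotted line between the separately counted experiments. GATA3 drops from 77.8% and 85.2% in MCF10A to 38.5% and 40.8% in G12V as GATA6 widens, and GRHL3 drops from 95.2% and 96.4% to 41.1% and 56.3% of the sum with GRHL1, GRHL2 being listed at 0.

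Genes known as targets of the families of these factors, or known to act beside them, were then counted in the same comparison. Whether a change of a factor led to any of theirs was not tested. Of 8 genes known as grainyhead-like targets, 7 were tested and 6 fell in G12V: the adhesion genes CDH1 (-8.81), EPCAM (-2.84) and CLDN4 (-4.27), the splicing factor ESRP1 (-8.70), RAB25 of apical trafficking (at least 94.3-fold lower) and TGM1 of the cornified envelope (-4.28), all as log2 fold changes unless a bound. ARHGEF19 did not pass (1.20, edgeR adjusted p = 0.16), but was called higher with the replicate block (1.16, edgeR adjusted p = 0.019). The 6 fell against a background of 5.95% of genes, with a median log2 fold change of -4.28 for the 7. CDH1 and EPCAM are also among the epithelial markers counted at the outset.

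Of 12 late epidermal genes, 8 were tested and 3 fell. These were the small proline-rich genes SPRR1A (at least 7.51-fold lower) and SPRR1B (at least 42.5-fold lower) and PPL, a plakin of the cornified envelope (-2.84). Of 8 luminal and milk genes, 5 were tested. The apical mucin MUC1 fell (-3.51) and the prolactin receptor PRLR rose (4.12), from 0.357 to 6.30 CPM. KRT8, KRT18 and AREG did not pass. With the replicate block KRT18 was called lower (-0.71, edgeR adjusted p = 0.0020) and AREG higher (2.11, edgeR adjusted p = 0.0010).

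Among 24 other lineage factors, 17 were tested, 4 fell and none rose. With the replicate block 7 of the 17 fell and 3 rose, beside 2087 genes lower and 2071 higher among all 14376. TP63, the basal cell factor, fell by 10.04 on the log2 scale. OVOL2 (-3.95), which holds back mesenchymal genes, CASZ1 (-3.20) and TFAP2A (-1.07), an epidermal and mammary factor, also fell. TFCP2L1, of the wider grainyhead family, fell by 1.29, while TFCP2 and UBP1 did not pass. The genes of these 4 lists called without the block, and TFCP2L1, also passed without MCF10A replicate 2 or either G12V library. None of them passed without MCF10A replicate 1.

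**Figure D4:**
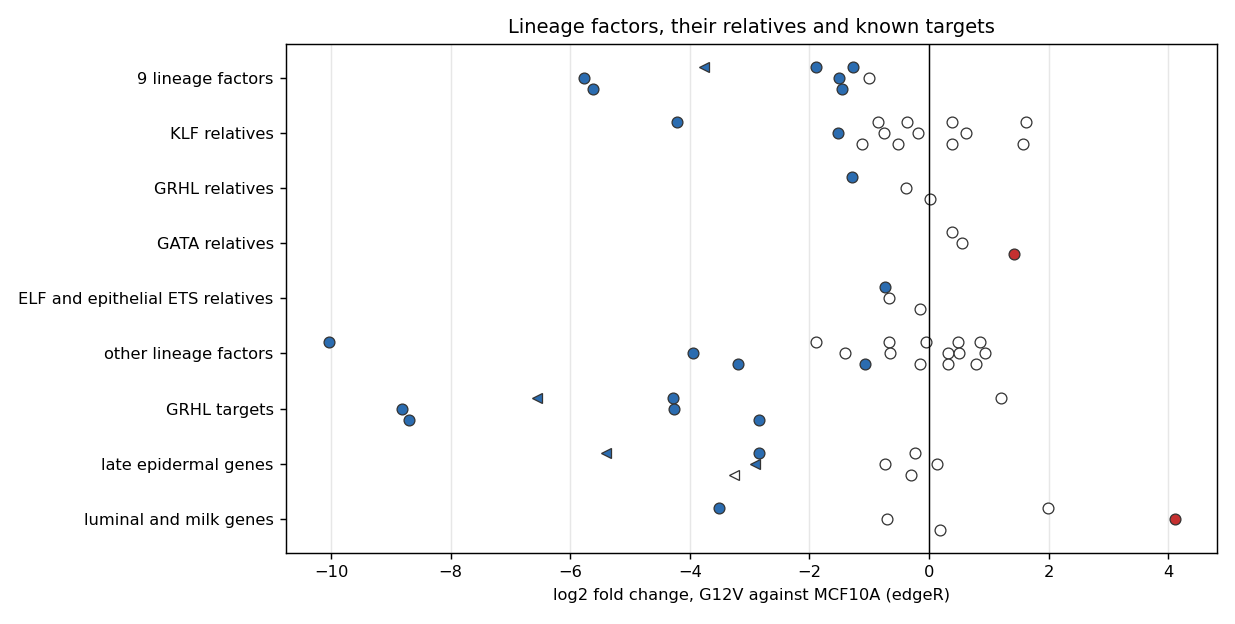
Log2 fold change of G12V against MCF10A for each tested gene of the 9 factors and 8 lists. Blue symbols were called lower, red symbols higher and white symbols neither, and triangles are bounds for genes with no more than 3 reads in each G12V library. Called genes of the grainyhead-like targets lie between -2.84 and -8.81, and GATA6 and PRLR are the red points.

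After 4 h of Nutlin-3a no factor was called. Of the 9, 6 were tested and none was called, against 0.17% of 13529 genes called in either direction. The DMSO and Nutlin-3a ranges overlapped for each of the 6, and 0 had an unadjusted p under 0.05 in edgeR and 0 were called by DESeq2. Replicate numbers paired these libraries by the check described with the processing, and with the number as a replicate block 1.22% of genes and again 0 of the 6 were called. In that fit 3 of the 6 (GRHL3, KLF4 and GATA3) had an unadjusted p under 0.05, beside 11.7% of all genes.

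GRHL3 had the largest log2 difference of the 6. It had 38, 11 and 72 reads in DMSO replicates 1 to 3 (2.10, 0.675 and 4.20 CPM) and 96, 25 and 91 reads in Nutlin-3a replicates 1 to 3 (5.91, 1.55 and 5.99 CPM). Nutlin-3a was the higher in 3 of 3 pairs, although DMSO replicate 3 exceeded Nutlin-3a replicate 2. Its difference on the log2 scale was 0.94 ± 0.65 (edgeR adjusted p = 0.9997), and 0.99 ± 0.23 with the replicate block (adjusted p = 0.051).

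KLF4, at 34.7, 33.3 and 17.8 CPM in DMSO and 28.8, 23.8 and 14.3 CPM in Nutlin-3a, was lower in 3 of 3 pairs. Its log2 fold change was -0.36 ± 0.31, and with the replicate block -0.36 ± 0.10 (edgeR adjusted p = 0.10). GATA3 was also lower in 3 of 3 pairs, at 22.8, 14.7 and 15.6 CPM against 15.2, 13.95 and 12.7 CPM, with a log2 fold change of -0.34 ± 0.19. KLF5 ran at 144, 178 and 123 CPM against 125, 159 and 118 CPM, lower in 3 of 3 pairs, with a log2 fold change of -0.15 ± 0.17.

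EHF (log2 fold change -0.10 ± 0.25) had 75, 120 and 90 reads in DMSO and 95, 83 and 70 in Nutlin-3a, and its groups were interleaved. GRHL1 (-0.40 ± 0.41) had 57, 34 and 24 reads in DMSO and 39, 15 and 26 in Nutlin-3a, equally interleaved. ZNF750 had 14, 0 and 0 reads in DMSO and 15, 2 and 7 in Nutlin-3a, too few for a test. ELF5 had at most 2 reads in any of these libraries.

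ELF3 had 4, 0 and 1 reads in DMSO and 6, 0 and 0 in Nutlin-3a. In the annotation of this table ELF3 shares its strand and 4289 bases with RP11-510N19.5, which had 0 reads. Of the ELF3 exon bases (GENCODE), 31.1% lie in that span taken from end to end. A smaller share, 18.5%, lies in GENCODE exons of other genes on either strand. How reads of overlapping genes were counted is not given in the sources used here, so the ELF3 level in this table, and its contrast with 15.8 CPM in untreated MCF10A, cannot be read as expression alone.

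Of the lists, none had a member called under Nutlin-3a without the block, among KLF, GRHL, GATA and ELF relatives, other lineage factors, grainyhead-like targets, late epidermal and luminal genes. GATA6 had a log2 fold change of -0.65 (edgeR adjusted p = 0.93). With the replicate block 1 gene of these lists was called, AREG, an EGF receptor ligand of the mammary duct (0.61, adjusted p = 0.0052).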

How the data were processed

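Poly(A) RNA of MCF10A, G12V, DMSO and Nutlin-3a cells was sequenced. The authors used TopHat to align reads to hg19 and HTSeq for counting, and the deposited values are raw counts per gene. The annotations, strand setting and overlap mode are not given in the sources used here. The experiments were deposited as separate tables on different annotations, so each was tested on its own. The study's methods name biological replicates but not separate thaws or passages, and p-values measure the spread between these libraries.

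Counts were filtered with filterByExpr, normalized by TMM and tested with the edgeR 4.0.16 quasi-likelihood F-test (R 4.3.3, limma 3.58.1) with Benjamini-Hochberg adjustment over all genes tested. The prior count was 0.125 and each SE was obtained by dividing the size of the log2 change by the root of F. Where no library of a group exceeded 3 counts, the fold is a bound against 3 counts per library and covers counting error only. DESeq2 1.42.0, the edgeR exact test, other normalizations, filters, a replicate block and each library left out were alternatives. The fit was tested on simulated data with known changes. The simulation used a single spread for all genes and no replicate effect, so it checks the fitting steps only. RPKM used GENCODE v44lift37 exon lengths, another annotation than the authors'. No other column was used.

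Members and lists were chosen with earlier results of these data known. Named genes were all members, the called genes of the lists and the relatives a sentence needs. Correlations of deviations from group means were 0.603 to 0.639 between DMSO and Nutlin-3a libraries of the same number and -0.474 to -0.191 between the others, so these numbers pair the libraries. A gene of the list of other lineage factors is not reported here.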

Additional observations from a re-analysis of the deposited data

How the results depend on the processing

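In G12V against MCF10A every edgeR call of a factor was lost without MCF10A replicate 1. Those of EHF, KLF4 and GATA3 were lost without MCF10A replicate 2, and none without either G12V library. The count of factors called was 6 with no filter on low counts and 7 under the other alternatives run. With the replicate block 7 were called, and calls over all genes rose from 1575 to 4158. The correlation of deviations was 0.494 between G12V and MCF10A libraries of the same number and -0.494 between the others. With 2 libraries per group these values can differ only in sign, so they are not separate measurements. Same-numbered libraries thus deviated alike across genes, but the sources used here give no pairing beyond the number. For Nutlin-3a the count was 0 under every alternative, the replicate block included. Without DMSO replicate 2 the log2 fold changes of EHF (0.15) and KLF5 (0.0043) changed sign, and the cause was not tested. On leaving out each library they ranged from -0.28 to 0.15 and from -0.29 to 0.0043. In both comparisons the block changed no call of a factor. ELF5 in both tables, and ELF3 and ZNF750 in the Nutlin-3a table, had too few reads to be tested.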

Other observations

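Parental MCF10A was measured in both experiments, untreated and under DMSO, in tables normalized separately on different annotations. Levels of some factors lay apart between them, and the part of annotation, vehicle and culture was not tested. Untreated cells had 19.7 CPM of GRHL3 and DMSO cells 2.33 CPM. EHF was at 19.2 and 5.59 CPM, ZNF750 at 1.77 and 0.258 CPM, and KLF5 at 242 and 149 CPM, again with separate ranges. For KLF4 (24.1 and 28.6 CPM), GRHL1 (1.62 and 2.21 CPM) and GATA3 (26.0 and 17.7 CPM) the ranges overlapped. Over 12597 genes matched by symbol the median log2 ratio of untreated to DMSO was 0.0010, the median absolute deviation was 0.464, and 9.22% lay beyond a log2 ratio of 2 in either direction. Among these genes, 96.0% had a lower ratio than GRHL3 and 91.9% a lower ratio than EHF. GRHL3 in DMSO cells thus sat between its levels in untreated MCF10A and in G12V (0.393 CPM), as values from separate tables. EHF in DMSO cells (4.15 to 7.36 CPM) overlapped its G12V values (6.37 and 3.97 CPM). ZNF750 had 0 reads in DMSO replicates 2 and 3, as in both G12V libraries. ELF3, with the overlap described above, was at 0.0932 CPM in DMSO cells and 0.286 CPM in G12V. For KLF4, KLF5, GATA3 and GRHL1 every DMSO library lay above both G12V libraries. Some list genes also differed between the parental sets, and the cause was not tested. MUC1 was at 290 CPM in untreated, 16.2 CPM in DMSO and 25.4 CPM in G12V cells. PPL was at 220.5, 23.0 and 30.7 CPM. TP63, CASZ1, CLDN4, RAB25 and TGM1 were likewise higher in untreated than DMSO cells, with separate ranges, and PRLR was lower. For CDH1, EPCAM, ESRP1, SPRR1A, SPRR1B, OVOL2 and TFAP2A these ranges overlapped.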
